A study of Drosophila melanogaster with 2 samples.

Results

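Of the 3921 summits in the optimal peak list for CG8281, 418 lay at a core promoter, meaning no more than 100 bp from the annotated transcription start site (TSS) nearest to them. They made up 10.7% of the list (exact 95% interval 9.71 to 11.7%). Each summit was measured against the nearest TSS of any protein-coding transcript in the Ensembl annotation, and the distance was the only criterion. A summit is the base at which the deposited list places the top of a peak. The list was made from chromatin immunoprecipitation and sequencing (ChIP-seq) of whole Drosophila melanogaster embryos of 0 to 20 hours. The flies stably expressed CG8281 with a C-terminal tag of green fluorescent protein (GFP), and the precipitating antibody recognised GFP. Both libraries, biological replicates 1 and 2, came from this 1 group, and no other genotype, treatment or age was compared. The 418 summits are therefore compared with the 828 summits placed over 100 and up to 500 bp upstream of a TSS (upstream summits), with the 2538 beyond 500 bp and, where stated, with all 3503 other summits. The lists hold no read counts, so depth is unknown and every interval covers counting error only. Summits are places in 1 pair of libraries and are not replicates of each other, and a test between classes of summit describes these lists.

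A core promoter is the DNA around the start site where RNA polymerase II and the general transcription factors assemble. In flies, many broadly expressed genes have core promoters with the DNA replication-related element (DRE) or Ohler motifs 1, 6 and 7, while regulated genes more often have an initiator or a TATA box at a fixed distance from the start. DRE is bound by Dref, the core of motif 1 is bound by M1BP, and genes for ribosomal proteins often start within a run of pyrimidines called the TCT initiator.

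The 100 bases before the TSS are shown here for 9 genes whose core promoter carried a summit and 1 of the sequence elements described below, from the Release 6 reference genome of RefSeq, 5′ to 3′ on the strand of the gene. No annotated exon lies in these bases. Acn, eEF1gamma and RpL28 have the strongest such summits with DRE, and capitals mark TATCGATA. RpLP1 and Csk carry GGTCACAC, the core of motif 1, in capitals. Bulli and CG9213 carry Ohler motif 7, also in capitals. Mad and comm3 carry words of 8 bases that were chosen at summits far from any TSS, and capitals mark the bases that such words cover.
Acn chr2L:19045255-19045354 plus strand: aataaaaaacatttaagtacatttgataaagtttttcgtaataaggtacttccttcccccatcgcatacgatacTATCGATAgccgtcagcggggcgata
eEF1gamma chr3R:29220072-29220171 plus strand: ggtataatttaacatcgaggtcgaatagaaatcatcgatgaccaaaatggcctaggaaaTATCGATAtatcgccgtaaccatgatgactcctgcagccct
RpL28 chr3L:3222961-3223060 minus strand: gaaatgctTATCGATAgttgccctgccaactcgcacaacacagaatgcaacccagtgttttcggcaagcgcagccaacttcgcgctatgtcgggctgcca
RpLP1 chr2L:419852-419951 plus strand: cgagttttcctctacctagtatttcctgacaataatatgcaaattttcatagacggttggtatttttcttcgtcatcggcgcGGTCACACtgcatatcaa
Csk chr3R:11650707-11650806 minus strand: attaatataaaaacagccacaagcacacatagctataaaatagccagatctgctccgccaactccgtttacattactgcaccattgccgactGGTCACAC
Bulli chr3L:6488581-6488680 plus strand: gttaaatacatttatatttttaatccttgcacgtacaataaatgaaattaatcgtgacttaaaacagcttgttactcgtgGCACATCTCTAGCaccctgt
CG9213 chrX:15574536-15574635 minus strand: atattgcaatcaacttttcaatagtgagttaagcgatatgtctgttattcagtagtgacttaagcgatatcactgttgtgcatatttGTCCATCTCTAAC
Mad chr2L:3152754-3152853 minus strand: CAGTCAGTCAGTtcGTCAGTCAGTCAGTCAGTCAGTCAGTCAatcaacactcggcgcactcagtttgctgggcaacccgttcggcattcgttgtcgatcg
comm3 chr3L:15634491-15634590 minus strand: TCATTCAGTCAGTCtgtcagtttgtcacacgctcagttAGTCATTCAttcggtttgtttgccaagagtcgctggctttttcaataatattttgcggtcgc
Acn encodes Acinus, a protein of RNA processing, and eEF1gamma a subunit of a translation elongation factor. RpL28 and RpLP1 encode ribosomal proteins, Csk a kinase that acts on Src family kinases, and Bulli a subunit of the Rab7 exchange factor. Mad is the transcription factor of the Dpp pathway, and comm3 belongs to the commissureless family. In RpL28 the DRE begins close to the far end of the window, whereas in RpLP1 and Csk the core of motif 1 lies close to the start site.

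More core promoter summits lay before the start site than behind it. Upstream of the TSS were 282 summits and downstream 136, a share of 67.5% upstream (exact 95% interval 62.7 to 71.9%; two-sided exact binomial test against equal sides, Benjamini-Hochberg adjusted p = 2.07e-12 over 8 tests). The median position was -37 bp, with quartiles of -72.75 and 12.75 bp, and no summit fell on the start base itself. The excess lay in the outer upstream part. There were 172 summits from 100 to 51 bp upstream and 110 from 50 to 1 bp upstream, against 44 and 92 at the same distances downstream. Among the 202 summits within 50 bp, 54.5% were upstream and the test was not passed (adjusted exact p = 0.463). In the next 50 bp beyond the limit lay 229 summits upstream and 38 downstream, so the core promoter summits include the near side of a larger group centred further upstream.

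**Figure D1:**
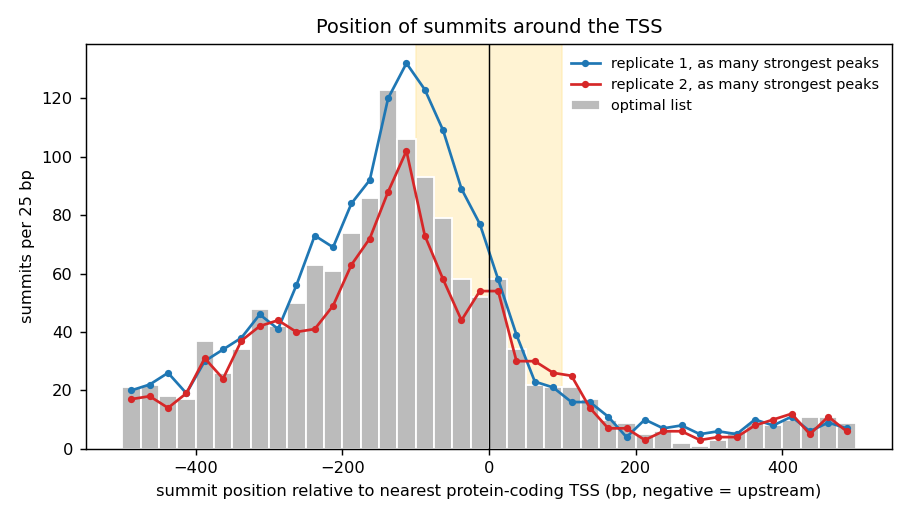
Summits per 25 bp (vertical axis, number) by position relative to the nearest protein-coding TSS (horizontal axis, bp), for the optimal list (bars) and for the 3921 strongest peaks of each replicate (lines); the shaded band marks 100 bp to either side. Inside the band, the bars go from 93 summits in the outermost upstream bar to 21 in the downstream bar that begins at 75 bp, with a rise from 52 to 58 across the start site.

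The limit of 100 bp cut through a continuous distribution. The last 5 bp inside it, from 96 to 100 bp, held 31 summits and the next 5 bp held 28. The strongest just inside were at CG7601 (-100 bp, signal 1053), Hpf1 (-100 bp, 780) and CG8892 (100 bp, 591). The nearest outside, all at the next base upstream, were CG5554 (355), isoQC (269) and Hsp26 (262). Signal is the authors' value for each peak, of unstated scaling.

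Nearly all of these summits fell between genes, in a 5′ UTR or in an intron. Between annotated genes lay 198, or 47.4%, in a 5′ UTR 160, or 38.3%, and in an intron 51, or 12.2%. The others were 6 in non-coding exons, 2 in a 3′ UTR and 1 in coding sequence. Of those in a 5′ UTR, 129 were on the downstream side of their TSS, and the other 31 lay upstream of it, within the UTR of another transcript or gene. The chromosome arms 3L, 3R, 2L and 2R held 97, 95, 91 and 87 of the summits, X held 48 and the chromosomes 4 and Y held 0. Set against annotated start sites, X had 1.45 core promoter summits per 100 TSSs and the other 4 arms 2.04 to 2.56. Of its own summits, X had 6.59% at core promoters, beside 10.6 to 12.4% on those arms, and chromosome 4 had 0 of 8.

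Core promoter summits often lay where start sites on opposite strands were close together. An opposite-strand TSS within 500 bp upstream or downstream was found at 199 of 418 (47.6%, exact 95% interval 42.7 to 52.5%), against 151 of the 828 upstream summits (18.2%, 15.7 to 21.0%). Of all 19630 protein-coding TSSs, 23.4% had such a neighbour. The distance rule itself shapes this contrast, so no test of it is given. A summit between start sites no more than 200 bp apart cannot be over 100 bp from both, and in a wider gap only the central stretch is. Pairs with a gap of up to 200 bp made up 16.5% of the core promoter summits and 0.604% of the upstream ones. Pairs with gaps over 200 and up to 500 bp made up 31.1% and 17.6%, shares that the rule also constrains. At genes with several TSSs, 147 of 244 summits, or 60.2%, lay at the 5′-most one, beside 39.5% of all TSSs of such genes. Counting every protein-coding gene with a TSS within 100 bp, 387 summits had 1 gene in reach, 29 had 2 and 2 had 3, which gave 449 different genes.

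By signal, core promoter summits were spread over the whole list. Their signal ran from 122.7 to 56064.5 with a median of 223, beside 236 for the upstream summits and 217 for the whole list. Above the list's median were 214 of 418 (51.2%, exact 95% interval 46.3 to 56.1%), compared with 55.7% of the upstream summits (Fisher's exact test, adjusted exact p = 0.170) and 49.8% of all other summits (adjusted exact p = 0.605). In the replicates' own lists the share was below that of the upstream summits and the test was passed, at 50.6% in replicate 1 (adjusted exact p = 0.0324) and 44.99% in replicate 2 (adjusted exact p = 0.000273). Among the 100 strongest peaks of the optimal list, 12 were at core promoters and 77 lay beyond 500 bp. The median signal in bins of 25 bp ranged from 194 at 26 to 50 bp downstream to 319 at 51 to 75 bp downstream, a bin of 22 summits, with no steady trend along the promoter.

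**Figure D2:**
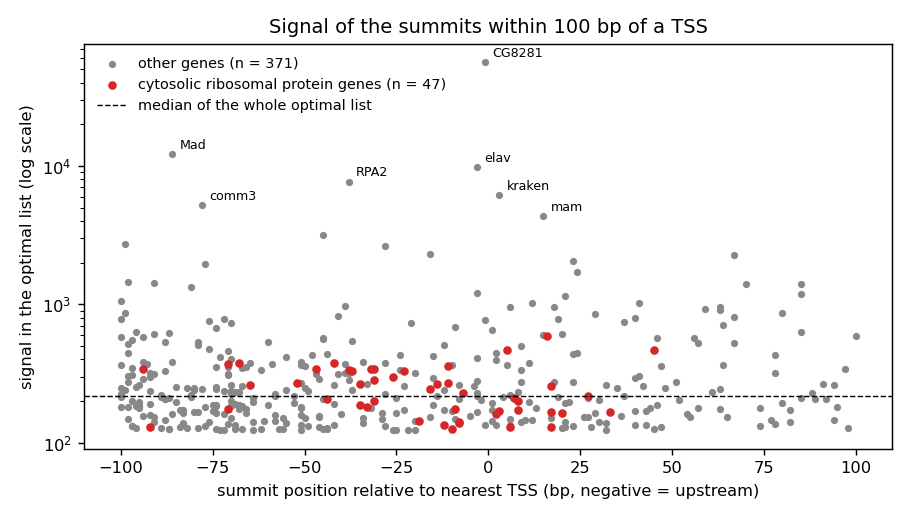
Signal in the optimal list (vertical axis, log scale, the authors' units) against position relative to the nearest TSS (horizontal axis, bp) for all 418 core promoter summits, with the 47 at cytosolic ribosomal protein genes in red; the dashed line is the median of the whole list, 217. The strongest summit is at CG8281, 1 bp upstream, and the ribosomal protein summits lie between 127 and 593.

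The strongest core promoter summit was at CG8281 (FBgn0035824), the gene of the tagged protein, 1 bp upstream of its TSS on chr3L. Its signal was 56064.5 in the optimal list, 21494.9 in replicate 1 and 34523.1 in replicate 2, and it ranked first in all 3 lists. Signal from DNA of the native gene and of the transgene cannot be told apart in these lists, so the size of this peak is given as deposited. Mad (FBgn0011648) followed with 12188.5 at a peak on chr2L from 3152233 to 3153838, 86 bp upstream of the second of its 2 TSSs. Its ranks in replicates 1 and 2 were 12 and 6. The summit at elav (FBgn0260400), which encodes a neuronal RNA-binding protein, had a signal of 9785.29 and lay 3 bp upstream of the TSS, on chrX in a peak from 522180 to 523948. It ranked 11 in replicate 1 and 13 in replicate 2. These 3 places were thus near the top of both lists.

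The remaining summits among the 12 strongest belonged to genes of many roles. RPA2, a subunit of the single-strand DNA-binding replication protein A, had a signal of 7694 at -38 bp and ranks of 26 and 16 in replicates 1 and 2. At kraken the signal was 6128 at 3 bp, and the ranks were 14 and 69. At comm3 it was 5195 at -78 bp, with ranks of 34 and 35. The Notch coactivator gene mam had 4331 at 15 bp, with ranks of 39 and 46, and Prosalpha7, an alpha subunit of the 20S proteasome, had 3169 at -45 bp, with ranks of 51 and 70. CG14100 (2720, -99 bp), the nucleotide sugar transporter gene Ugalt (2647, -28 bp), Acn (2310, -16 bp) and CG9747 (2267, 67 bp) completed the group, with ranks of 48 to 63 in replicate 1 and 108 to 154 in replicate 2. Each of the 12 therefore ranked within the strongest 154 peaks of both replicates. Mad, comm3, mam and CG9747 held a word chosen at distal summits within 100 bp of the summit, and Acn held DRE.

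Of the 418 summits, 412 had an optimal peak that overlapped a peak of replicate 1 and 363 one of replicate 2, and 357 had both. Where several overlapped, the best-ranked was taken, so neighbouring summits can share 1 replicate peak. Counting only the 3921 strongest peaks of each replicate, 270 (64.6%, exact 95% interval 59.8 to 69.2%) were found in both, 97 in replicate 1 alone, 39 in replicate 2 alone and 12 in neither. The share in both was 68.8% for the upstream summits and 68.6% for all others (Fisher's exact test, adjusted exact p = 0.170 for each). Requiring the replicate's summit within 100 bp of the optimal one gave 60.0% of the core promoter summits. Neither test was then passed (Fisher's exact test, adjusted exact p = 0.335 against upstream and 0.171 against all others). With peaks of any rank, 85.4% of the core promoter summits had a peak in both replicates against 752 of the 828 upstream summits and 3364 of the 3503 others (adjusted exact p = 0.00841 against upstream and 4.76e-15 against all others). The summit of the replicate's own peak lay a median of 15 bp from the optimal summit over the 412 with a peak in replicate 1, and also over the 363 with a peak in replicate 2. It was within 50 bp for 87.4% and 84.6% of them.

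The replicates ranked these places unequally. Of the 357 summits with a peak in both, 225 (63.0%) had the better rank in replicate 1, as did 63.4% of the upstream summits, 45.2% of all other summits and 39.4% of the summits beyond 500 bp. Core promoter summits differed in this from all others (Fisher's exact test, adjusted exact p = 2.29e-10) and from those beyond 500 bp (adjusted exact p = 1.96e-16), but not detectably from the upstream summits (adjusted exact p = 0.894). This comparison was chosen after seeing the data. In the replicates' own lists of the 3921 strongest peaks, 539 summits (13.7%) of replicate 1 and 369 (9.41%) of replicate 2 lay within 100 bp of a TSS. The share of these upstream of the TSS was 73.8% in replicate 1 and 62.4% in replicate 2.

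**Figure D3:**
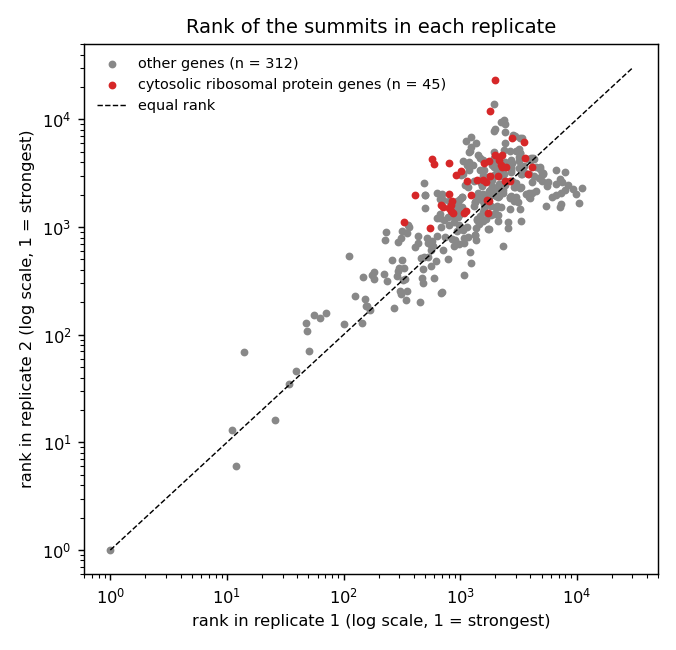
Rank in replicate 2 (vertical axis, log scale) against rank in replicate 1 (horizontal axis, log scale) for the 357 core promoter summits with a peak in both, where rank 1 is the strongest peak; red points are cytosolic ribosomal protein genes and the dashed line is equal rank. Above the line lie summits that rank better in replicate 1, 225 of the 357.

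The largest differences in rank were at weak summits. RpL11 ranked 1988 in replicate 1 and 23148 in replicate 2, pad, a zinc finger gene, 1957 and 13784, and RpS15Aa 1810 and 12009. In the other direction, PKD, which encodes protein kinase D, ranked 10473 in replicate 1 and 1665 in replicate 2. Ctl1, a choline transporter-like gene, ranked 11088 and 2285, and CG3164 ranked 9770 and 2013. All 6 had a signal of 133 to 201.2 in the optimal list, below its median. A large difference in rank requires a weak peak in 1 replicate, so the choice itself favours weak summits.

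Sequence elements of broadly active promoters were more frequent at core promoter summits than at upstream ones. Windows reaching 100 bp to either side of each summit were searched on both strands for 13 motifs, and 9 differed between the core promoter and the upstream summits (Fisher's exact test, Benjamini-Hochberg adjusted over the 13). DRE, TATCGATA, was in 45 windows or 10.8%, against 1.81% upstream, 0.158% beyond 500 bp and 6.44% of windows at all TSSs (adjusted exact p = 3.93e-10 against upstream). CGATA, the core of the site of the insulator protein BEAF-32, which is also contained in DRE, was in 175 windows or 41.9%, against 25.5% upstream and 37.1% at all TSSs (adjusted exact p = 4.26e-08). Ohler motif 7 was in 52 windows or 12.4%, against 3.62% upstream and 6.80% at all TSSs (adjusted exact p = 6.17e-08). GGTCACAC was in 25 windows or 5.98%, against 0.604% upstream and 5.68% at all TSSs (adjusted exact p = 6.17e-08), and the full Ohler motif 1, which overlaps it, in 17 or 4.07% against 0.483% (adjusted exact p = 2.06e-05). Thus the shares of DRE and motif 7 were above those at TSSs in general, and that of GGTCACAC was close to it, as a description without a test.

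Since an upstream summit's window reaches the start site less often, the same search was made in windows centred on the nearest TSS, an alternative chosen after seeing the data. There DRE remained more frequent at the core promoter summits, 10.5% against 3.50% (adjusted exact p = 1.53e-05), as did CGATA, 40.9% against 29.95% (adjusted exact p = 0.000591), and motif 7, 13.9% against 7.61% (adjusted exact p = 0.00180). GGTCACAC, 7.66% against 4.59%, and motif 1, 5.02% against 3.02%, no longer passed (adjusted exact p = 0.0943 and 0.177). GAGAGAG, a site of the GAGA factor Trl, was less frequent at the core promoter summits in these windows, 4.31% against 12.4% (adjusted exact p = 1.53e-05), with 4.68% at all TSSs, so that the upstream share stood furthest from TSSs in general, while around the summit it did not pass, 3.35% against 5.56% (adjusted exact p = 0.122). With the start site in the same place, 4 of the 13 motifs thus differed.

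Each window was also compared with flanks as long in all, which had their centres 500 bp away on either side. DRE was in 45 summit windows but not in the flanks, and in the flanks alone at 4 (exact McNemar test, adjusted exact p = 1.07e-08). For motif 7 these numbers were 50 and 7 (adjusted exact p = 2.75e-08), for GGTCACAC 25 and 1 (adjusted exact p = 2.09e-06), and for motif 1 they were 17 and 0 (adjusted exact p = 3.31e-05). The distance rule places every summit window at a TSS, whereas the flanks lie further off. Tests against flanks therefore compare bases near a start site with bases further away. They cannot tell these summits from other start sites. Around the summit, DRE, GGTCACAC or motif 1, 6 or 7 was found at 111 summits, or 26.6%, against 54 or 6.52% of the upstream ones. This contrast is shaped by the distance rule as well, since an upstream summit's window reaches the start site less often. The elements seldom stood together, with DRE and motif 7 at 11 summits and DRE and motif 1 at 1. The median signal of the 45 summits with DRE was 206, and that of the summits without it was 228.

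**Figure D4:**
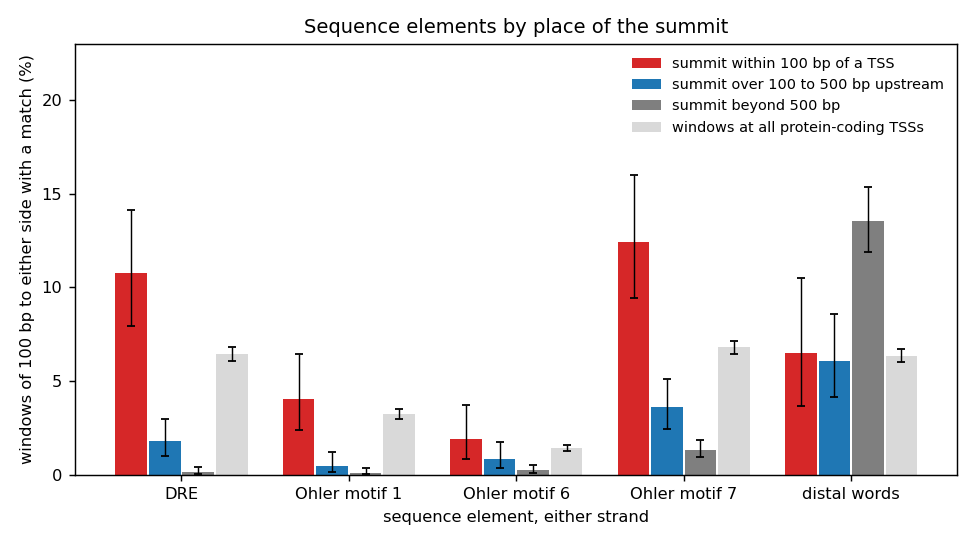
Share of windows of 100 bp to either side with a match (vertical axis, %) for DRE, Ohler motifs 1, 6 and 7 and the words chosen at distal summits (horizontal axis), by place of the summit, with exact 95% intervals as error bars; the words are counted on the arms not used to choose them, except at all TSSs. DRE is in 10.8% of core promoter windows and 0.158% of those beyond 500 bp. The distal words are in 6.52% and 13.6%, the latter in the class they were chosen for.

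Of the other motifs, 4 passed around the summit but not in TSS-centred windows. The E-box CAGCTG was in 13.2% of core promoter windows and 5.43% of upstream ones (adjusted exact p = 1.18e-05), but centred on the TSS it was in 16.3% and 16.8%, and all TSSs had it in 13.4%. The letters TATAAA at any place were in 30.9% against 43.5% (adjusted exact p = 3.07e-05), and centred on the TSS the direction turned, 23.4% against 20.2%. A GATA factor site, spelled TGATAA, was in 14.1% against 21.4% (adjusted exact p = 0.00348), and it also turned, 14.1% against 11.1%. Against the summits' own flanks both passed as more frequent at the summit, TATAAA at 112 summits alone against 45 flanks alone and TGATAA at 53 against 31 (exact McNemar test, adjusted p = 3.87e-07 and 0.0347). CAGGTAG, the site of the early activator Zelda, was in 6 core promoter windows (1.44%) and 2 upstream ones (0.242%, adjusted exact p = 0.0289), and the call was lost under most alternatives. Motif 6 (1.91% against 0.845%), the E-box CACGTG (3.11% against 1.69%) and runs of AAAAAAAA (10.8% against 13.2%) did not pass (adjusted exact p = 0.179, 0.174 and 0.237). Against their own flanks the runs of A passed as more frequent at the summit, at 43 against 20 (exact McNemar test, adjusted p = 0.00957).

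Elements with a fixed place were counted on the sense strand at the nearest TSS, and their tests were chosen after seeing the data. An initiator (TCA, then G or T, then T, then T or C, within 7 bp of the TSS) was present at 26 core promoter summits or 6.22%, below the 17.9% at upstream summits (Fisher's exact test, Benjamini-Hochberg adjusted p = 1.28e-08) and beside 10.3% of all TSSs. A TATA box, TATAAA 45 to 15 bp upstream, was present at 10 or 2.39%, below 4.95% (adjusted exact p = 0.0336), with 7.68% of all TSSs. A TCT initiator (T or C, then CTTT, then T or C, within 7 bp) was present at 18 or 4.31%, above 1.57% (adjusted exact p = 0.00897), with 1.25% of all TSSs. Core promoter summits therefore lay less often at starts with an initiator or TATA box than upstream summits did, and more often at starts with a TCT initiator. GC content within 100 bp of the summit followed the position. Above the list's median of 36.8% were 52.6% of the core promoter windows and 26.8% of the upstream ones (Fisher's exact test, adjusted exact p = 2.98e-18), and against all others, 47.4%, the test was not passed (adjusted exact p = 0.0980). That call depended on the limit, since the share passed as higher at 50 bp (66.3%) and as lower at 150 bp (43.4%). The median GC was 32.8% for summits 100 to 76 bp upstream and 42.8% for those 25 to 1 bp upstream. The distance rule places core promoter windows nearer the start site, so it shapes the GC contrast with the upstream summits. That test cannot separate the class of summit from its position, and GC was not compared in TSS-centred windows.

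A search without named motifs, against the same flanks, returned GGTCACAC and a word that overlaps DRE. It too sets bases near a start site against bases further away. The search therefore cannot tell these summits from other start sites. All words of 8 bases were compared between the summit windows and their flanks on 2L and 3L, and the 10 with the smallest p were tested on the other arms by the exact McNemar test. Of these, 5 passed. ATCGATAG, which overlaps DRE, was in 25 summit windows alone and in the flanks alone at 2 (adjusted exact p = 5.65e-05). GGTCACAC was in 10 windows alone and 0 flanks alone (adjusted exact p = 0.00391). The other 3 were AAAATATT (22 against 3), AATATAAA (20 against 4) and AATAAATT (20 against 4), with adjusted p of 0.000783, 0.00386 and 0.00386. Words rich in A and T thus stood beside both motifs.

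Words chosen at summits beyond 500 bp from a TSS were also found at some core promoters. In the same way, 10 words were chosen at summits beyond 500 bp on 2L and 3L, and they are overlapping forms of ACTGACTG and ACTGAATG. On the other arms 15 of 230 core promoter windows held 1 of them (6.52%, exact 95% interval 3.70 to 10.5%), beside 209 of 1541 beyond 500 bp (13.6%, 11.9 to 15.4%). The words were picked as frequent at summits beyond 500 bp. Their choice thus favours a higher share there, and no test of that contrast is given. On the same arms the share was 6.10% at upstream summits (Fisher's exact test, adjusted exact p = 0.869). Windows at all TSSs, counted on every arm, had 6.37%. When the words were instead chosen on 2R, 3R, X and 4, the core promoter share on 2L and 3L was 4.26%. Over all arms, 21 of the 418 core promoter summits held a word chosen on 2L and 3L, or 5.02%. Their median signal was 294, beside 220 for the other 397, and 14 of the 21 lay above the list's median (Fisher's exact test, p = 0.181). This comparison was chosen after seeing the data.

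Genes for cytosolic ribosomal proteins had the highest share among 19 gene lists defined by gene symbol, which include duplicated copies. A core promoter summit was found at 47 of 93 of them, 50.5% (exact 95% interval 40.0 to 61.1%), whereas the share of all 13968 protein-coding genes was 3.21%. With replicate 1's own list the share was 55.9%, with replicate 2's 35.5%, and with the stronger part of the optimal list, 1960 peaks, 25.8%. The list was chosen with earlier results of these data known and is described without a test. Of the 93 genes, 52 had a summit within 500 bp and 47 within 100 bp, whereas of all protein-coding genes 1708, or 12.2%, had one within 500 bp and 449 within 100 bp.

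The ribosomal protein summits were moderate in signal. Their signal ran from 127 to 593 with a median of 230, beside 223 for all core promoter summits, and 32 of 47 lay on the upstream side. The strongest was at RpS27, 16 bp downstream of the TSS, with a signal of 593 in the optimal list, 404 in replicate 1 and 175 in replicate 2. RpL7, at 45 bp, had 470, 342 and 117, and RpS30, at 5 bp, had 467, 274 and 198. In each of these 3 the rank was better in replicate 1, at 330, 407 and 555, than in replicate 2, at 1124, 1978 and 971. The same held for 40 of the 45 with a peak in both replicates, and RpL9 and RpL27A had no peak in replicate 2. The median rank of the 47 was 1596 in replicate 1 and 2753 in replicate 2, and 32 were among the 3921 strongest in both.

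Most of the TCT initiators at core promoter summits belonged to ribosomal protein genes. At the nearest TSS it was present at 12 of 47, and at 6 of the other 371 core promoter summits, or 1.62%. At any TSS of the gene, 20 of the 47 genes with a core promoter summit and 7 of the 46 without had it. DRE was in the summit window of 14 of the 47, among them RpL28 and RpS30, and 1, RpL23A, held a distal word. These counts are descriptions.

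**Figure D5:**
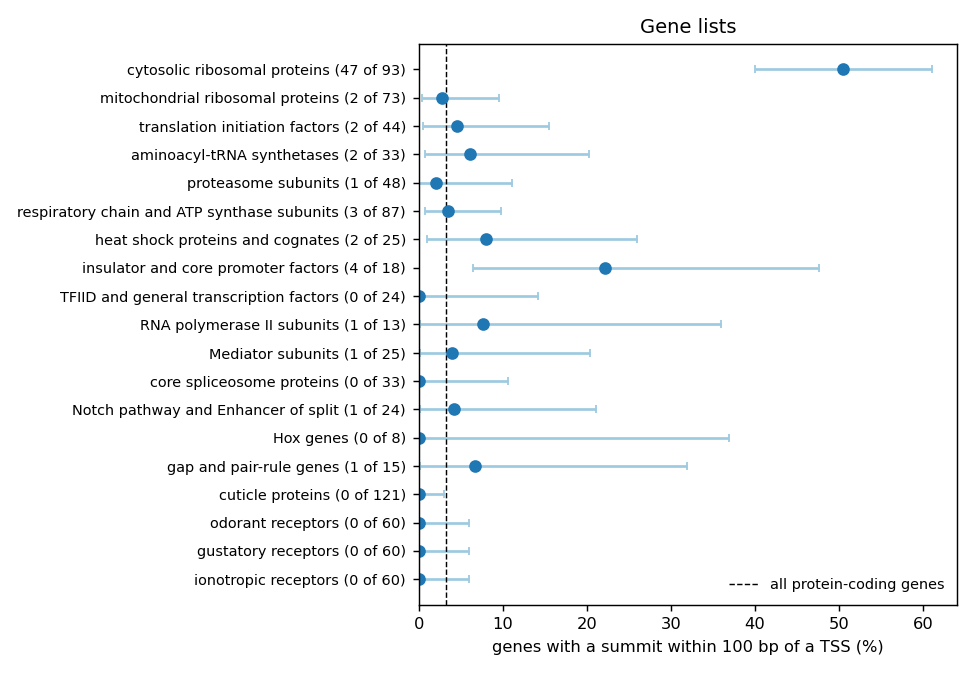
Share of genes with a summit within 100 bp of a TSS (horizontal axis, %) for 19 gene lists (vertical axis, with the number of genes), with exact 95% intervals; the dashed line is the share of all protein-coding genes, 3.21%. Cytosolic ribosomal proteins stand at 50.5%, and the next list, insulator and core promoter factors, at 22.2% with a wide interval.

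The share of mitochondrial ribosomal protein genes was near that of all genes. Among them 2 of 73 genes, or 2.74%, had a core promoter summit, namely mRpL23 (signal 964, 63 bp) and mRpL1 (377, -65 bp). Within 500 bp a summit was found at 13 of the 73, and at 12.2% of all protein-coding genes. Of 2 further lists of protein synthesis, translation initiation factors had 2 of 44, 4.55% (exact 95% interval 0.555 to 15.5%), eIF3h (244) and eIF4E6, whose summit (133) was nearer to CG1951, and aminoacyl-tRNA synthetases had 2 of 33, 6.06% (0.743 to 20.2%), SerRS (332) and GluProRS (226). Both intervals include the share of all genes, and elongation and release factors were in no list. The proteasome had Prosalpha7 alone of 48. Respiratory chain and ATP synthase genes had 3 of 87, the complex I subunits ND-B14.7 (751), ND-39 (736) and ND-30 (262).

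Genes for factors that act at promoters were a small list with a wide interval. Of 18 insulator and core promoter factors, 4 had a core promoter summit, 22.2% (exact 95% interval 6.41 to 47.6%), and with a limit of 50 bp the share was 5.56%. The strongest was at Chro, which encodes the interband protein Chromator, with a signal of 1399 at 85 bp and ranks of 155 and 186 in replicates 1 and 2. Dref, the gene of the DRE-binding factor, had 330 at -47 bp in a peak it shares with RpL13, whose TSS is nearer, and Trl had 207 at 89 bp. RNA polymerase II subunits had Polr2B (345) of 13 and Mediator subunits had MED17 (188) of 25. TFIID and general transcription factors had 0 of 24 and spliceosome proteins 0 of 33, which allows shares of up to 14.2% and 10.6%.

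In the lists of stress, patterning, cuticle and receptor genes, 0 to 2 genes each had a core promoter summit. Heat shock proteins and cognates had 2 of 25, Hsp83, the fly Hsp90, with a signal of 367 at -100 bp, and Hsc70-5, a mitochondrial chaperone, with 362 at -10 bp and no peak in replicate 2. The Notch pathway and Enhancer of split list had mam of 24, and the gap and pair-rule list had the pair-rule gene hry (172, -23 bp) of 15. Hox genes had 0 of 8. Cuticle protein genes had 0 of 121, which allows a share of up to 3.003% by the exact 95% interval, beside the 3.21% of all genes. The share of all genes ranged from 1.49 to 6.11% over the alternative settings, so no depletion is read from this count. The odorant, gustatory and ionotropic receptor lists had 0 of 60 each, which allows up to 5.96%.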

How the data were processed

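ChIP-seq peaks of 2 biological replicates were used as deposited, in narrowPeak tables on dm6. Per the labels and the deposited notes, peaks were called against a control for each replicate and for both alignments pooled, and the optimal list derived from these by the irreproducible discovery rate. No aligner, caller or threshold is given in the sources used here. The columns used were the authors' signal per peak, of unstated scaling and so compared only within a list or as ranks, and the summit offset. The deposited −log10 q values were not used for any result. Replicate and pooled lists held 30000 peaks each.

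Summits were assigned to the nearest of 19630 protein-coding TSSs (Ensembl release 115, 7 chromosomes). A replicate peak was shared if it overlapped the optimal peak by at least 1 bp. Motifs were searched 100 bp to either side of the summit in the RefSeq Release 6 sequence, the same assembly. Shares were compared by Fisher's exact, exact binomial or exact McNemar tests, two-sided, with Benjamini-Hochberg adjustment within each family and a threshold of 0.05; intervals are exact (Clopper-Pearson) at 95% and cover counting error only. Tests ran in SciPy 1.17.1 under Python 3.11.15, with tables in pandas 2.3.3, arrays in NumPy 2.4.6 and plots in Matplotlib 3.10.9, and the scripts were tested on simulated data. Named genes are those of the nearest TSS for the 12 strongest summits, up to 3 members of each list by signal, the 3 summits on either side of the limit, the 3 with the largest rank difference in each direction, and CG8281; sequences come from up to 3 summits per motif. The other genes named, RpL9, RpL27A, RpL23A and RpL13, were chosen after their values were seen. The summits, lists and motifs were chosen with earlier results of these data known. Alternatives were each replicate's own 3921 strongest peaks, 1960 or 7842 peaks, and limits of 50 and 150 bp. Others were the 5′-most TSS alone, 1 summit per TSS, replicate peaks of any rank and replicate summits within 100 bp. Pair distances of 300 and 1000 bp and windows of 50 bp to each side were also run. Added after seeing the data were TSS-centred windows, the distal words, the tests of elements at the TSS and the rank comparison of the replicates.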

Additional observations from a re-analysis of the deposited data

How the results depend on the processing

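No paired analysis was possible because the samples form 1 group. The number of core promoter summits, 418, was 214 in the stronger 1960 peaks, 812 among the 7842 strongest pooled peaks, 202 with a limit of 50 bp and 685 with 150 bp, and the share of genes was 1.65%, 6.11%, 1.49% and 5.74% there, 2.62% with the 5′-most TSS alone and 2.85 to 4.12% without either replicate. The upstream share was 54.5% with 50 bp. The share above the median signal was 44.99 to 50.6% without either replicate and 51.5% in 7842 peaks, each now below the upstream summits with the test passed. Against all others it turned lower without replicate 1 (44.99%, test passed), and, with the test not passed, at 46.7% in the stronger 1960 and 46.9% with 1 summit per TSS. Presence in both replicates was lower than in the comparison summits with the test passed at 85.4% for peaks of any rank, and against all others also at 62.5% for the 5′-most TSS and 64.9% for 1 summit per TSS. The share above the median GC, against all others, did not pass as reported, and it passed as higher without replicate 1 (55.6%; 49.7% without replicate 2, not passed), in 7842 peaks (58.5%) and with 50 bp (66.3%), and as lower with 150 bp (43.4%), with Fisher's exact test adjusted p = 0.00260, 4.45e-07, 3.87e-07 and 0.0160.

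Windows centred on the TSS left 4 motifs passing and turned the direction for CAGCTG (16.3%), TGATAA (14.1%), AAAAAAAA (10.05%) and TATAAA (23.4%). Against their own flanks the direction differed from that against upstream summits for CACGTG (3.11%), GAGAGAG (3.35%), CAGGTAG (1.44%), TGATAA (14.1%), AAAAAAAA (10.8%) and TATAAA (30.9%), of which the last 3 passed. CACGTG also turned without replicate 1 (1.90%; 3.53% without replicate 2) and in windows of 50 bp (0.718%), GAGAGAG with a limit of 50 bp (4.95%), and AAAAAAAA with the 5′-most TSS (12.2%). DRE, CGATA and motif 7 passed in the same direction under all 11 alternatives run for each. Only the TSS-centred windows put the start site in the same place, so the others keep the effect of the distance rule. Other than for the changes named in the report, the cause of the differences between settings was not tested. The 2 replicates give no estimate of spread for a share, and without depth a missing peak in 1 replicate cannot be told from shallow sequencing.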
